A study of Mus musculus with 10 samples.

Results

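Some transcripts mark atrial rather than ventricular heart muscle, and 9 transcripts named for atrial identity were followed here across 10 libraries of mouse left ventricle: Sln, Myl7, Myl4, Bmp10, Stard10, Dkk3, Gja5, Nr2f2 and Tbx5. They were taken by name, as the rows of the count table whose RefSeq transcripts map to these symbols, and all 9 had a row of their own among 24160. Of the 9, 8 passed the expression filter (a mean normalized count of at least 1 over the 10 libraries), as did 14611 rows of the whole table, while Bmp10 did not. The samples were 6 MC4R-/- and 4 WT libraries of poly(A) RNA from the posterior wall of the left ventricle of C57BL6/J mice of 30 weeks, all kept at 24 °C and bred from heterozygous parents. MC4R-/- mice lack the melanocortin 4 receptor, a G-protein-coupled receptor through which the hypothalamus limits food intake, and the series links its loss to dilated cardiomyopathy. The labels do not describe the allele or the sex of the mice, and do not state that the libraries came from separate animals, so every p-value measures the spread between these samples. The normalized count, the level used below, is the number of reads scaled by a library's size factor.

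Between 4145033 reads (WT replicate 3) and 6425785 reads (WT replicate 4) fell on genes in each library. Mc4r had 4 reads over the 6 MC4R-/- libraries and 2 reads over the 4 WT libraries, so its transcript could not check the genotype labels at this depth. Cardiac muscle markers were abundant in every library: the summed normalized count of Myh6, Tnnt2, Tnni3, Actc1, Mybpc3 and Ttn was 334968 to 383138 in MC4R-/- libraries and 348783 to 398791 in WT libraries. In all, 3 libraries stood apart in ways that touch the results. MC4R-/- replicates 5 and 6 held the highest levels of the atrial transcripts Sln, Myl7 and Myl4, and WT replicate 2 held lymphocyte transcripts (a summed normalized count of 367 over 6 markers, against 7.92 to 26.0 in the other 9 libraries).

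Atrial and ventricular muscle cells of the heart use different sets of contractile and signalling proteins. Myl7 is the regulatory and Myl4 the essential myosin light chain of atrial muscle, where ventricle uses Myl2 and Myl3, and Sln encodes sarcolipin, a small membrane protein that inhibits the calcium pump SERCA and is the atrial counterpart of phospholamban (Pln). Bmp10 is a secreted ligand of the right atrium in the adult mouse, Gja5 is the gap junction protein connexin 40 of atrium, conduction system and arterial endothelium, Nr2f2 (COUP-TFII) is a nuclear receptor that sets atrial identity and is also present in veins, and Tbx5 is a T-box factor of atria, left ventricle and conduction system. Dkk3 is a secreted protein of the Dickkopf family and Stard10 a lipid transfer protein of the START family. Because whole tissue was sequenced, fewer cells of a type and less RNA per cell cannot be told apart in any value below.

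The atrial myosin light chains differed widely between libraries, but within each genotype as well as between them. Myl7, on chromosome 11 from 5896637 to 5898782 on the minus strand (GRCm38), had normalized counts of 0.978, 63.0, 8.71, 1.02, 720 and 134 in MC4R-/- replicates 1 to 6, against 48.1, 0.903, 1.38 and 0 in WT replicates 1 to 4. The highest library by far was MC4R-/- replicate 5, replicates 6 and 2 followed, and WT replicate 1 lay above 3 of the 6 MC4R-/- libraries, so the genotypes overlapped. WT replicate 4 had no Myl7 read, which allows a normalized count of up to 2.64 (3 reads, counting error only). Myl7 averaged 155 ± 282 in MC4R-/- libraries and 12.6 ± 23.7 in WT libraries (SD, n = 6 and 4), an SD larger than the mean in both groups.

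Myl4, on the same chromosome from 104546017 to 104587215 on the plus strand, was likewise high in MC4R-/- replicates 5, 6 and 2 and WT replicate 1. It had normalized counts of 4.89, 77.5, 20.04, 10.2, 905 and 195 in MC4R-/- replicates 1 to 6, against 106, 3.61, 6.92 and 6.16 in WT replicates 1 to 4. Replicates 5 and 6 of MC4R-/- again exceeded every WT library, and WT replicate 1 exceeded the other 4 MC4R-/- libraries. The means were 202 ± 352 in MC4R-/- libraries and 30.6 ± 50.2 in WT libraries (SD, n = 6 and 4).

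Because Myl7 and Myl4 had the highest Pearson correlation of all pairs of members, the 250 bases before their transcription starts are shown as given by RefSeq on GRCm38.p6, 5′ to 3′ on the strand of the gene. The Myl7 window is chr11:5898783-5899032 on the minus strand and the Myl4 window is chr11:104550413-104550662 on the plus strand. The Myl4 window ends at the start of the RefSeq transcript that was counted, which lies inside the annotated span of the gene; windows before other annotated starts of Myl4 were not searched.
Myl7: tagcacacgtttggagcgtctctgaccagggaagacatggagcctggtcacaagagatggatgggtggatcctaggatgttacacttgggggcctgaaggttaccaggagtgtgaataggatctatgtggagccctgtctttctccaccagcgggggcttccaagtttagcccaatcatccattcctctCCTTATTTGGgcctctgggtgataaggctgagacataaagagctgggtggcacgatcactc
Myl4: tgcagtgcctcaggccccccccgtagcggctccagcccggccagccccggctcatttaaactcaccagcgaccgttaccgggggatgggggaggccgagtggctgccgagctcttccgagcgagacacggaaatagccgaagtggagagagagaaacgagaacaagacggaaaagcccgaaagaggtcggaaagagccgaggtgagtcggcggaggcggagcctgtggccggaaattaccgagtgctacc
Capitals mark a CArG box, the binding motif of serum response factor, at bases 61 to 52 before the Myl7 start. Of 32851 mouse promoter windows of this length, 1.47% hold that motif on either strand, and of the 6 members with a RefSeq window (Myl7, Myl4, Bmp10, Stard10, Gja5 and Nr2f2) only Myl7 does. The CArG box was added to the search after the Myl7 sequence had been read. The T-box letters AGGTGT, the NK2 homeobox letters TNAAGTG, the nuclear receptor half-site AGGTCA and the MEF2 consensus were found in 0 of the 6 windows, against 11.8%, 10.1%, 14.0% and 0.508% of all windows. The GATA letters AGATAA were in 1 of the 6, Bmp10, which has them at bases 219 to 214 and again at 33 to 28 before its start, against 9.99% of all windows. No motif searched was shared by Myl7 and Myl4 in these windows, and a match is a description of sequence only.

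Sln, on chromosome 9 from 53850251 to 53853849 on the plus strand, was close to the detection limit outside MC4R-/- replicates 5 and 6. Its normalized counts were 0, 3.10, 0.871, 2.03, 170 and 22.2 in MC4R-/- replicates 1 to 6, against 3.85, 0, 0 and 0 in WT replicates 1 to 4. The 6 MC4R-/- libraries held 196 Sln reads and the 4 WT libraries held 4, and 10 of these reads lay outside MC4R-/- replicates 5 and 6. In the WT libraries all 4 reads came from replicate 1, the WT library that was also highest in Myl7 and Myl4. Without MC4R-/- replicates 5 and 6 Sln stayed just above the expression filter: its mean over the other 4 MC4R-/- libraries was 1.501 ± 1.35 and over the WT libraries 0.962 ± 1.92 (SD).

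Dkk3, on chromosome 7 from 112116019 to 112159482 on the minus strand, was present in every library and had a smaller range. Its normalized counts were 28.4, 77.5, 71.4, 25.4, 262 and 74.7 in MC4R-/- replicates 1 to 6, against 96.2, 10.8, 19.4 and 25.5 in WT replicates 1 to 4. The highest was again MC4R-/- replicate 5, but here WT replicate 1 was second and replicates 2, 3 and 6 of MC4R-/- lay close together behind it. Stard10, on chromosome 7 from 101317086 to 101346626 on the plus strand, varied little outside MC4R-/- replicates 5 and 6. It had normalized counts of 123, 111, 123, 127, 220 and 162 in MC4R-/- replicates 1 to 6, against 119, 142, 107 and 116 in WT replicates 1 to 4. MC4R-/- replicates 5 and 6 were its highest libraries, and the other 8 were spread over a coefficient of variation of 8.94%, against 25.1% for all 10.

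The transcription factors and the connexin did not follow that order. Nr2f2, on chromosome 7 from 70351946 to 70366746 on the minus strand, had normalized counts of 49.9, 53.7, 54.9, 60.0, 98.3 and 56.6 in MC4R-/- replicates 1 to 6, against 51.0, 51.5, 72.0 and 49.3 in WT replicates 1 to 4. Its highest library was MC4R-/- replicate 5 too, but MC4R-/- replicate 6 was not raised and WT replicate 3 was second. Tbx5, on chromosome 5 from 119796514 to 119885220 on the plus strand, had normalized counts of 169, 158, 159, 120, 177 and 197 in MC4R-/- replicates 1 to 6, against 169, 154, 126 and 166 in WT replicates 1 to 4. MC4R-/- replicates 6 and 5 were its highest libraries, yet its coefficient of variation over the 10 libraries was only 14.3%. Gja5, on chromosome 3 from 97032402 to 97053634 on the plus strand, had normalized counts of 43.1, 34.1, 47.0, 46.8, 46.6 and 37.4 in MC4R-/- replicates 1 to 6, against 50.03, 48.7, 26.3 and 48.4 in WT replicates 1 to 4. The single low library of Gja5 was WT replicate 3, the least deeply sequenced, and MC4R-/- replicates 5 and 6 lay within the range of the others. Bmp10, on chromosome 6 from 87428994 to 87434512 on the plus strand, had 1 read in MC4R-/- replicate 3, 1 read in WT replicate 2 and none elsewhere, so the 2 libraries highest in Myl7 had no read of the atrial ligand. Stard10, Dkk3, Gja5, Nr2f2 and Tbx5 had at least 10.8 normalized counts in every library, whereas Sln, Myl7, Myl4 and Bmp10 had 5 normalized counts or fewer in at least 1 library of each genotype. Near absence from ventricle thus held in every library for Bmp10, but only in some libraries for Sln, Myl7 and Myl4. Myl7 and Myl4 were at 48.1 and 106 in WT replicate 1, and at 720 and 905 in MC4R-/- replicate 5.

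**Figure D1:**
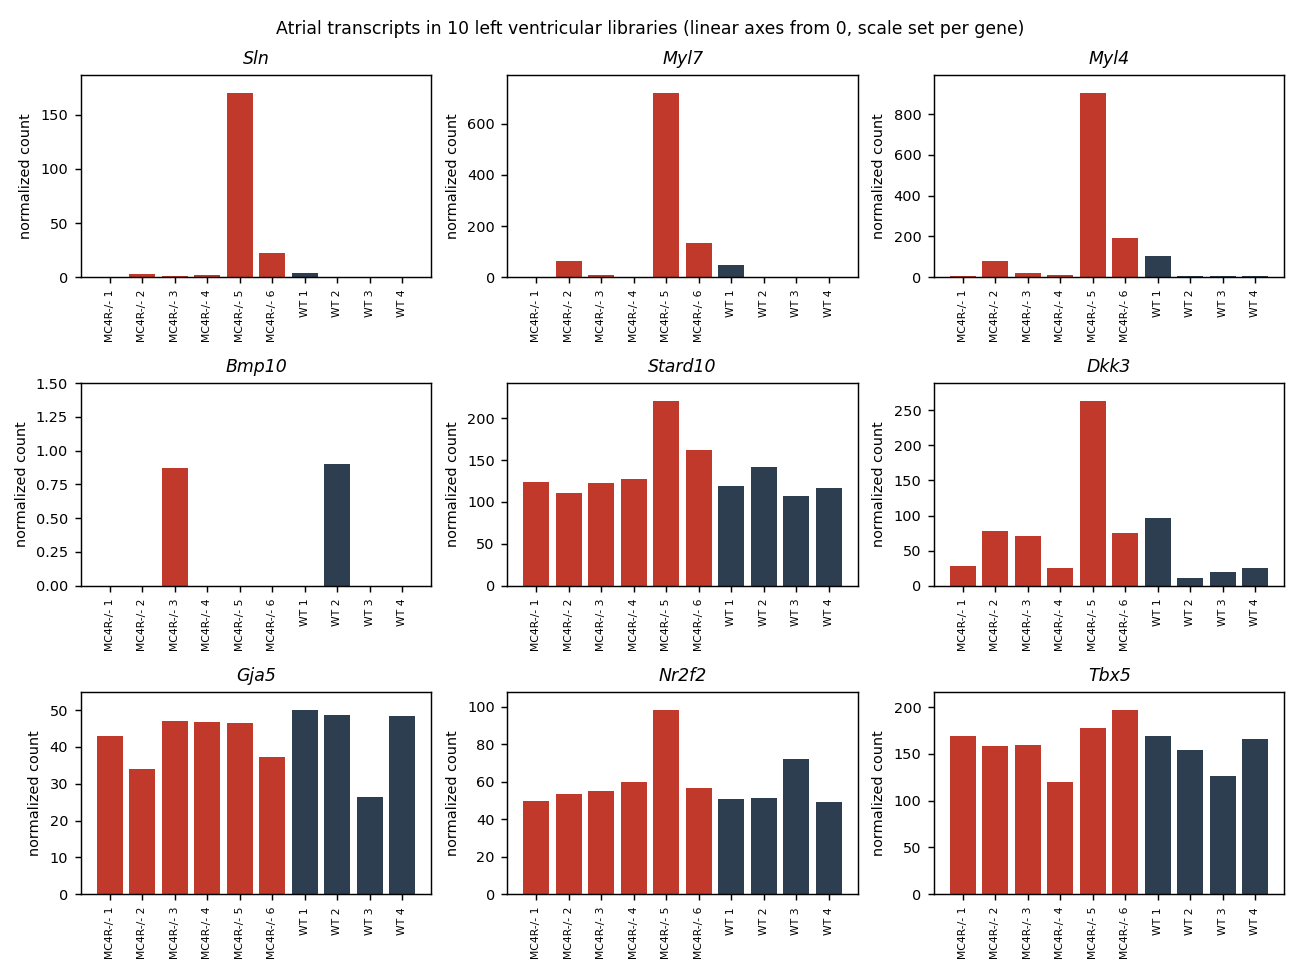
Normalized count (linear axis from 0, set per gene) of the 9 atrial transcripts in each library, with the 6 MC4R-/- libraries in red at the left and the 4 WT libraries in dark blue at the right. Sln, Myl7, Myl4 and Dkk3 peak in MC4R-/- replicate 5 (170, 720, 905 and 262), while Gja5 and Tbx5 lie at similar levels in nearly all libraries.

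The level per kilobase of transcript ordered the members differently in the 2 genotypes only among those that varied most. Stard10 was the highest by its mean in WT libraries (103 ± 29.2 normalized counts per kb in MC4R-/- libraries and 86.4 ± 10.6 in WT libraries). Tbx5 followed among the steady genes (41.5 ± 6.497 in MC4R-/- libraries and 39.0 ± 4.97 in WT libraries), then Nr2f2 (21.1 ± 6.10 in MC4R-/- libraries and 19.0 ± 3.65 in WT libraries) and Gja5 (13.7 ± 1.78 in MC4R-/- libraries and 14.0 ± 3.67 in WT libraries). Myl7 averaged 262 ± 478 per kb in MC4R-/- libraries and 21.4 ± 40.1 in WT libraries, and Myl4 230 ± 400 in MC4R-/- libraries and 34.8 ± 57.1 in WT libraries. With SDs beyond or near their means, neither light chain has a place of its own in that order, nor has Dkk3 (26.8 ± 26.1 in MC4R-/- libraries and 11.3 ± 11.7 in WT libraries). Sln was low by its median (1.95 per kb in MC4R-/- libraries and 0 in WT libraries), and Bmp10 had a median of 0 in both.

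Set against their ventricular counterparts, the atrial light chains and sarcolipin were a small share of the reads in every library. Myl7 made up 1.15% of the reads of Myl7 and Myl2 together in MC4R-/- replicate 5 (exact 95% binomial interval 1.07 to 1.24%), 0.212% in replicate 6 (0.177 to 0.251%) and 0.108% in replicate 2 (0.0826 to 0.139%). WT replicate 1 had 0.0794% (0.0590 to 0.105%), and the other WT libraries had at most 0.00194%. Myl4 made up 3.05% of the reads of Myl4 and Myl3 in MC4R-/- replicate 5 (2.86 to 3.26%) and 0.577% in replicate 6 (0.499 to 0.664%), against 0.317% in WT replicate 1 (0.261 to 0.382%). The share of Sln in the reads of Sln and Pln was 0.412% in MC4R-/- replicate 5 (0.352 to 0.479%) and 0.0689% in replicate 6 (0.0432 to 0.104%), against 0.00960% in WT replicate 1 (0.00262 to 0.0246%). In all 3 pairs the intervals of MC4R-/- replicates 5 and 6 lay above every other library and apart from each other. The intervals cover counting error only. The ventricular partner Myl2 itself had normalized counts of 48509 to 65057 in MC4R-/- libraries and 59640 to 71446 in WT libraries, and MC4R-/- replicates 5 and 6 were at 61892 and 63263.

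**Figure D2:**
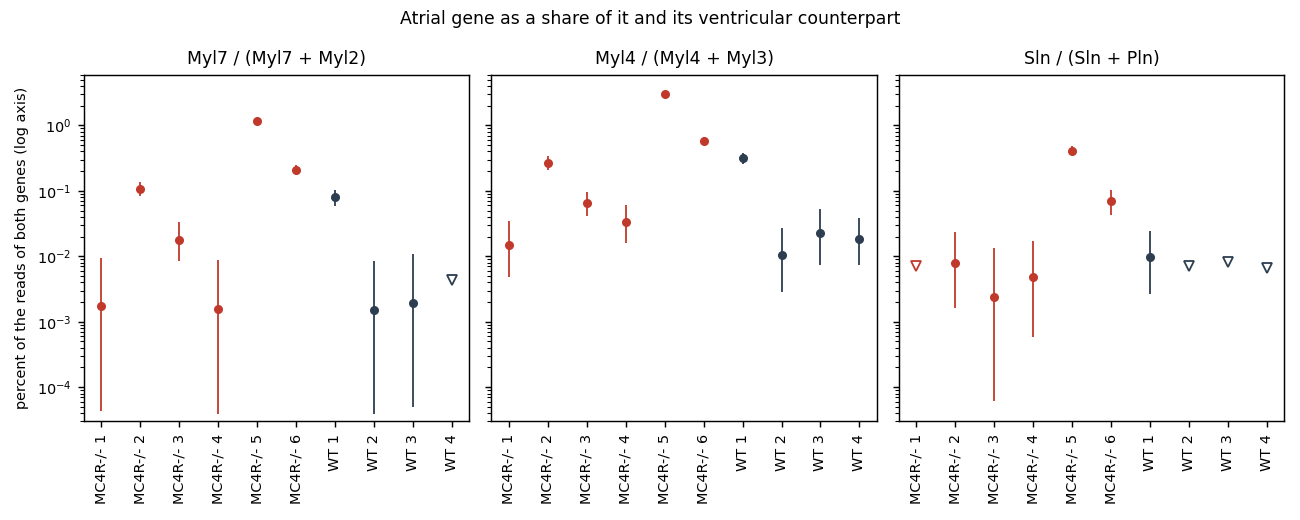
Percent of reads (log axis) that the atrial gene takes of itself plus its ventricular counterpart, per library, for Myl7 with Myl2, Myl4 with Myl3 and Sln with Pln, MC4R-/- in red and WT in dark blue. Bars are exact 95% binomial intervals and open triangles mark the limit that 0 reads allow (3 reads of the total). MC4R-/- replicate 5 reaches 1.15%, 3.05% and 0.412%, and WT replicate 1 stands above the other WT libraries for Myl7 and Myl4.

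The proportions between the atrial transcripts were compared in the libraries where they were high. Myl7 was 44.3% of the reads of Myl7 and Myl4 in MC4R-/- replicate 5 (41.9 to 46.8%), 40.8% in replicate 6 (35.4 to 46.3%) and 44.9% in replicate 2 (36.3 to 53.6%), against 31.3% in WT replicate 1 (24.2 to 39.0%). The 3 MC4R-/- intervals overlap each other. The interval of WT replicate 1 lies below that of MC4R-/- replicate 5 but overlaps those of MC4R-/- replicates 6 and 2. Sln was 19.1% of the reads of Sln and Myl7 in MC4R-/- replicate 5 (16.6 to 21.9%), 14.2% in replicate 6 (9.11 to 20.7%) and 4.69% in replicate 2 (0.977 to 13.1%), against 7.41% in WT replicate 1 (2.06 to 17.9%). The interval of MC4R-/- replicate 2 lies below that of MC4R-/- replicate 5, and the interval of WT replicate 1 overlaps both.

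Covariation was measured over the 28 pairs of the 8 filtered members, on log2(normalized count + 1). Pearson correlation passed the threshold (Benjamini-Hochberg adjusted permutation p under 0.05) in 7 pairs and Spearman correlation in 6. The members were chosen with earlier results of these libraries known, so these tests are no independent support for the pattern. All 6 pairs among Sln, Myl7, Myl4 and Dkk3 passed by both measures. Myl7 and Myl4 had r = 0.98 (permutation p = 7.0e-05, adjusted 0.00065) and rho = 0.94 (permutation p = 0.00017, adjusted 0.0024). Sln and Myl4 had r = 0.94 (permutation p = 4.0e-05, adjusted 0.00065) and rho = 0.96 (permutation p = 0.00013, adjusted 0.0024). Dkk3 correlated with Myl4 at r = 0.94 and rho = 0.85 (permutation p = 6.0e-05 and 0.0026, adjusted 0.00065 and 0.018), and somewhat less with Sln (r = 0.85 and rho = 0.83, permutation p = 0.0013 and 0.0049, adjusted 0.0062 and 0.027). The seventh pair, Sln and Stard10, had r = 0.85 (permutation p = 0.0092, adjusted 0.037) but rho = 0.46 (permutation p = 0.18, adjusted 0.34).

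Fewer pairs passed when the highest libraries were left out. Without the 2 libraries farthest from the median of the first gene of each pair, 3 of the 28 pairs passed by Pearson and 0 by Spearman. Without MC4R-/- replicates 5 and 6, 3 pairs passed by Pearson and 0 by Spearman, and the median r over the 28 pairs was 0.050, against 0.55 over all 10 libraries. These 3 were Myl7 with Myl4 (r = 0.96, exact permutation p = 0.0030, adjusted 0.033), Sln with Myl4 (r = 0.91, exact permutation p = 0.0036, adjusted 0.033) and Myl4 with Dkk3 (r = 0.91, exact permutation p = 0.00084, adjusted 0.024). In the 8 libraries MC4R-/- replicate 2 and WT replicate 1 are the highest for Myl7, Myl4 and Dkk3. Sln had 10 reads in all over these 8 libraries, with at most 4 in a library (WT replicate 1), so its correlation there rests on few reads. Within the 6 MC4R-/- libraries alone, 5 pairs passed by Pearson and 0 by Spearman. Without MC4R-/- replicates 5 and 6, Stard10 lost its relation with Sln (r = -0.16, exact permutation p = 0.71, adjusted 0.95). The correlation of Stard10 with Sln over 10 libraries thus rests on those 2 libraries. Gja5 showed no relation with any other member over the 10 libraries (r between -0.24 and 0.32).

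**Figure D3:**
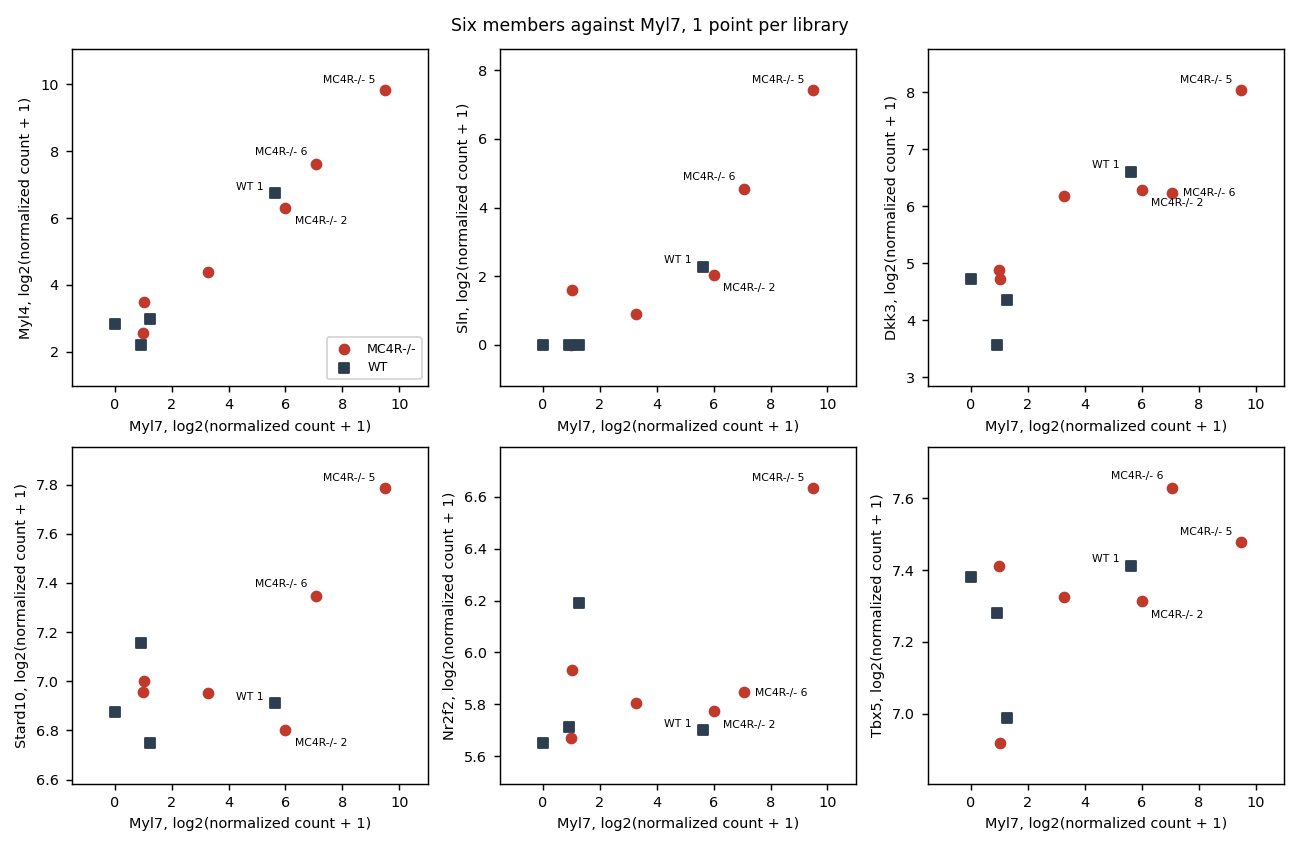
Myl4, Sln, Dkk3, Stard10, Nr2f2 and Tbx5 against Myl7, each as log2(normalized count + 1), 1 point per library, with MC4R-/- as red circles and WT as dark blue squares. Myl4, Sln and Dkk3 are all highest in MC4R-/- replicate 5 and higher in WT replicate 1 than in the other WT libraries, and Stard10 and Nr2f2 are highest in MC4R-/- replicate 5 and Tbx5 in replicate 6.

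Across genotypes, 0 of the 8 tested members passed the threshold in either direction (limma, Benjamini-Hochberg adjusted p under 0.05 over 14611 genes), where 0.459% of all tested genes did (67 genes, 0.287% higher and 0.171% lower in MC4R-/- libraries). All 8 had a positive log2 fold change, MC4R-/- over WT, with a median of 0.73, against -0.0055 over all tested genes. Without MC4R-/- replicates 5 and 6 that median was 0.25, and 6 of the 8 were positive. Over all 10 libraries Gja5 was positive by only 0.0053, and its sign reversed in 8 of 25 settings. The share of all tested genes with a positive fold change was not counted. Because the members were chosen with earlier results known, their shared sign is no independent support for a difference. The log2 fold changes were 2.69 ± 1.99 for Myl7, 2.18 ± 1.44 for Sln, 2.002 ± 1.59 for Myl4 and 1.25 ± 0.78 for Dkk3 (SE), with limma adjusted p of 0.743, 0.705, 0.759 and 0.690. Their 95% intervals were wide, from -1.87 to 7.25 for Myl7, and included both no difference and a large one. Those of the steady members were narrow: -0.10 to 0.54 for Stard10, -0.23 to 0.49 for Nr2f2, -0.17 to 0.33 for Tbx5 and -0.38 to 0.39 for Gja5. No member had groups that did not overlap, as 1.34% of tested genes did with MC4R-/- higher and 0.938% with MC4R-/- lower. The two-sided exact permutation p of single members ranged from 0.186 (Dkk3) to 1 (Gja5), where the smallest possible is 0.00476. In the number of MC4R-/- libraries above every WT library, Myl7 had 3 of 6, Sln, Myl4, Stard10 and Tbx5 had 2, Dkk3 and Nr2f2 had 1 and Gja5 had 0. That number was not counted over all tested genes, so it cannot be read as a trait of the members.

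Most of the signal of 3 members came from MC4R-/- replicate 5. That library held 84.1% of the summed normalized count of Sln over all 10 libraries, 73.6% of Myl7 and 67.8% of Myl4, and with MC4R-/- replicate 6 the shares were 95.1%, 87.3% and 82.4%. Dkk3 had 37.9% in replicate 5 and 48.7% in both, and the other tested members were near an even spread, with at most 16.5% in replicate 5. Without replicate 5 the log2 fold change was 1.72 ± 1.76 for Myl7, 1.25 ± 0.77 for Sln, 1.18 ± 1.36 for Myl4 and 0.85 ± 0.68 for Dkk3 (SE). Leaving out replicate 6 alone moved them less, to 2.204, 1.82, 1.62 and 1.21. Leaving out WT replicate 1, the high WT library, moved them the other way, to 3.91 for Myl7, 2.75 for Sln, 3.02 for Myl4 and 1.84 for Dkk3 (limma adjusted p 0.488 to 0.662). Without MC4R-/- replicates 5 and 6, and with all 4 WT libraries, the log2 fold changes were 0.87 ± 1.67 for Myl7, 0.57 ± 0.70 for Sln, 0.49 ± 1.27 for Myl4 and 0.71 ± 0.74 for Dkk3, and Stard10 was at 0.01 ± 0.12 (SE). In that comparison, too, 0 of the 8 members passed (limma adjusted p 0.821 to 0.993, with 0.48% of 14593 genes called), and the exact permutation p lay between 0.4 and 1, with a smallest possible p of 0.0286. Means without the 2 libraries were 18.4 ± 29.9 in MC4R-/- libraries and 12.6 ± 23.7 in WT libraries for Myl7, and 28.1 ± 33.5 in MC4R-/- libraries and 30.6 ± 50.2 in WT libraries for Myl4 (SD, n = 4 each).

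Count models gave larger fold changes for Myl7, Sln and Myl4. Fitted with edgeR quasi-likelihood, Myl7 had a log2 fold change of 3.55, Sln 4.87 and Myl4 2.67, with 0 of the 8 members called against 0.411% of tested genes. Without MC4R-/- replicates 5 and 6, edgeR gave 0.49 for Myl7 and -0.16 for Myl4, with 0 members called against 0.5% of tested genes. No member was called by DESeq2 either, where 0.813% of tested genes were. Without the 2 libraries DESeq2 called 0.937% of tested genes, but among the members Tbx5 alone had an adjusted p (0.978), so the other 7 could not be called there.

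**Figure D4:**
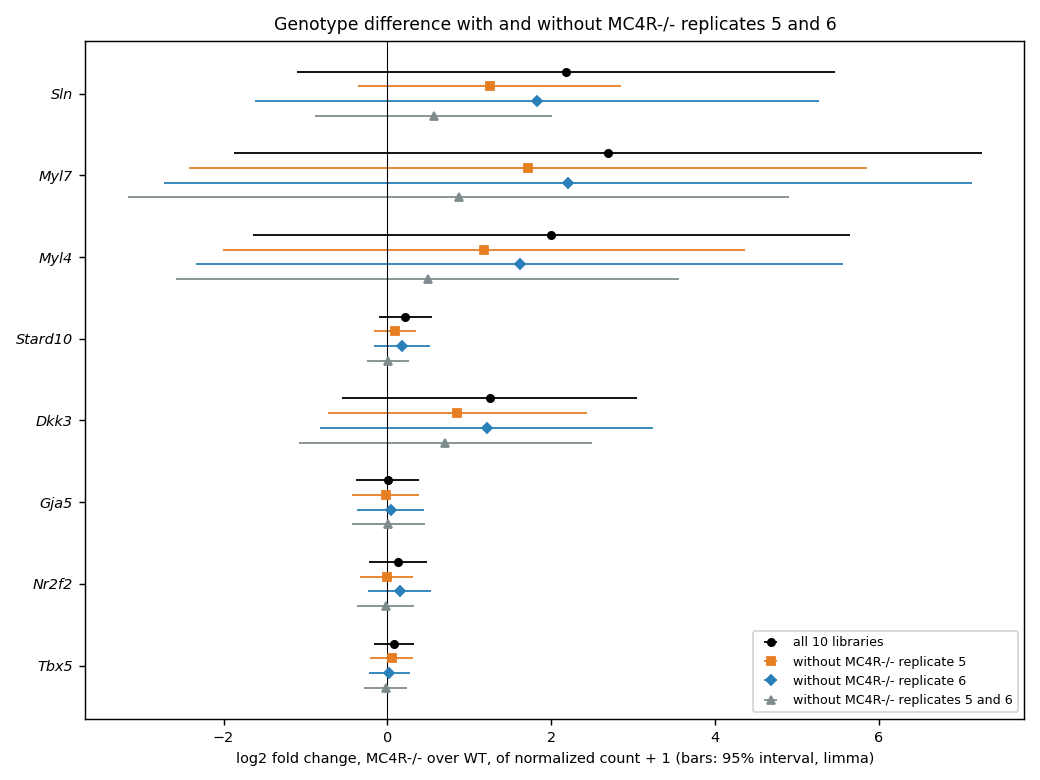
Log2 fold change of normalized count + 1, MC4R-/- over WT, of the 8 tested members with all 10 libraries, without MC4R-/- replicate 5, without replicate 6 and without both, with 95% intervals from limma. The estimates of Sln, Myl7, Myl4 and Dkk3 move towards 0 as replicates 5 and 6 are left out (Myl7 to 1.72 and 0.87), and every interval includes 0.

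Among all genes with a mean of at least 10, the pattern of Sln over the 10 libraries was most like that of Mybphl (r = 0.97), which encodes a myosin-binding protein. Mybphl was also second to Myl4 for Myl7 (r = 0.94) and second to Myl7 for Myl4 (r = 0.96). It had normalized counts of 0.978, 6.20, 1.74, 1.02, 95.2 and 11.1 in MC4R-/- replicates 1 to 6, against 4.81, 0, 0 and 0.880 in WT replicates 1 to 4. Its 5 highest libraries were those of Myl7, in the same order, and its log2 fold change was 1.89 ± 1.13 (SE, limma adjusted p = 0.669). Without MC4R-/- replicates 5 and 6 Mybphl was not among the first 5 genes for Sln, Myl7 or Myl4, and its level in each of those 8 libraries was under 10. Dkk3 was most like genes of the extracellular matrix. They were Prg4 (lubricin, r = 0.97), Prelp (a leucine-rich repeat proteoglycan, r = 0.95), Chad (chondroadherin, r = 0.95), Myl4 and Col12a1 (collagen XII, r = 0.93). Without MC4R-/- replicates 5 and 6 these 4 matrix genes were again among the first 5 (r = 0.95 to 0.96), and Myl4 was not. Chad had normalized counts of 0.978, 11.4, 8.71, 0, 40.5 and 19.2 in MC4R-/- replicates 1 to 6, against 26.9, 0, 0 and 0.880 in WT replicates 1 to 4. The libraries high in Chad were those high in Dkk3, including WT replicate 1.

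For the steady members the nearest genes were Hip1r for Stard10 (r = 0.93), Hps6 for Gja5 (r = 0.94), Ppp1r21 for Nr2f2 (r = 0.90) and Mvp for Tbx5 (r = 0.94). Hps6 and Mvp kept the first place without MC4R-/- replicates 5 and 6 (r = 0.98 for each). For Sln, Myl7, Stard10 and Nr2f2 the first place passed to Casq1, Dzip3, Tmem39b and the shared row of Dnaja1 and Mir207. These likenesses are correlations over 10 or 8 libraries and are the highest of many genes for each member.

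Other genes known to be higher in atrial than in ventricular muscle did not differ between genotypes beyond the test's threshold, and some were highest in the same libraries. Of Nppa, Kcnj3, Kcnj5, Kcna5, Nr2f1, Hey1, Cacna1d and Pam, all 8 were tested and 0 passed in either direction, with a median log2 fold change of 0.10. Over all tested genes 0.459% passed. Nppa, which encodes atrial natriuretic peptide, had normalized counts of 567, 396, 883, 550, 1360 and 592 in MC4R-/- replicates 1 to 6, against 585, 499, 692 and 1332 in WT replicates 1 to 4. MC4R-/- replicate 5 and WT replicate 4 were equally high, and MC4R-/- replicate 6 was not. The atrial potassium channel genes Kcnj5 (676 ± 77.4 in MC4R-/- libraries and 590 ± 48.3 in WT libraries) and Kcna5 (164 ± 30.1 in MC4R-/- libraries and 204 ± 36.8 in WT libraries) did not pass (SD, n = 6 and 4; limma adjusted p 0.445 and 0.416). The summed normalized count of the 8 genes was 6553 to 8855 in MC4R-/- libraries and 6247 to 7996 in WT libraries, highest in MC4R-/- replicate 5 and in the middle in replicate 6. MC4R-/- replicate 5 was the highest library for 4 of the 8 genes (Nppa, Kcnj3, Kcnj5 and Pam). How many of all genes were highest in that library was not counted. Kcna5 was at 152 in MC4R-/- replicate 5, below every WT library (169 to 241). Hey1 was at 75.0 there, above WT replicate 1 alone (72.2), though highest in MC4R-/- replicate 6 (107). MC4R-/- replicates 5 and 6 were the 2 highest for Kcnj5 (757 and 747, against at most 731 in the other MC4R-/- libraries and 637 in WT libraries). They were also the 2 highest for Nr2f1, a relative of Nr2f2, with 17.2 and 22.2, against at most 14.2 in the other MC4R-/- libraries and 11.4 in WT libraries.

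Among 8 ventricular identity genes 7 were tested, of which 0 rose and 1 fell in MC4R-/- libraries. Over all tested genes 0.287% rose and 0.171% fell. Kcnip2, the accessory subunit of the transient outward potassium current of ventricular muscle, fell to 1021 ± 44.0 in MC4R-/- libraries, against 1388 ± 128 in WT libraries (log2 fold change -0.44 ± 0.07, SE, limma adjusted p = 0.0020). The median of the 7 was -0.09. The relatives of the 2 atrial light chains included 1 gene that passed. Myl1, the essential light chain of fast skeletal muscle, rose to 260 ± 32.3 in MC4R-/- libraries, against 178 ± 17.7 in WT libraries (log2 fold change 0.54 ± 0.10, SE, limma adjusted p = 0.0093), while 6 others (Myl2, Myl3, Myl6, Myl9, Mylk3 and Mylk2) did not pass. The myosin light chain kinase Mylk3 came nearest, with 3904 ± 159 in MC4R-/- libraries and 4647 ± 300 in WT libraries (limma adjusted p = 0.056). Fitted without the trend and robust steps limma called 0 genes in the whole table, so Kcnip2 and Myl1 were not called there.

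Where 0.459% of all tested genes passed, no tested gene did among the partners and relatives of the other members. This held for 7 SERCA regulators and calcium store genes (median log2 fold change 0.02), 13 genes of BMP9 and BMP10 signalling (0.02), 11 transcription factors that act with or resemble Tbx5 (-0.01), 4 cardiac connexins (-0.03), 3 Dickkopf relatives and Wnt co-receptors (0.15) and 11 StAR-domain lipid transfer genes (-0.12). Of 11 conduction system genes 0 passed (median 0.14). Among them the Purkinje fibre gene Cntn2 was highest in MC4R-/- replicate 5, with normalized counts of 34.2, 82.6, 47.0, 19.3, 119 and 52.5 in MC4R-/- replicates 1 to 6, against 77.9, 73.1, 38.8 and 32.6 in WT replicates 1 to 4. MC4R-/- replicate 5 also had the highest Hcn4, the pacemaker channel of the sinus node (70.9, against 20.8 to 51.0 in the other 9 libraries).

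Markers of other cell types were set beside the members in each library, and their part in the members' levels was not tested. Epicardium and mesothelium markers (8 of 8 detected) summed to 53.5 to 129 in MC4R-/- libraries and 48.1 to 94.2 in WT libraries. Replicate 5 was second in that sum, but the highest was MC4R-/- replicate 1, which had 1 Myl7 read, and MC4R-/- replicate 6 and WT replicate 1 were among the 3 lowest. Adipocyte markers (6 genes, Ucp1 at 0 in all libraries) summed to 0 to 22.3 in MC4R-/- libraries and 0 to 8.12 in WT libraries, highest in MC4R-/- replicate 5. MC4R-/- replicate 6 (9.09) was close to WT replicate 2 (8.12), and all these sums rest on few reads. Fast skeletal muscle markers (9 genes), of which Myh2 and Myh4 were at 0 in all libraries and Myh1 had 1 read, summed to 11.3 to 28.4 in MC4R-/- libraries and 2.77 to 17.2 in WT libraries, also highest in MC4R-/- replicate 5. Schwann cell and neuron markers (7 genes, 2 at 0 in all libraries) summed to 43.7 to 74.4 in MC4R-/- libraries and 46.7 to 69.2 in WT libraries. Lymphocyte markers in MC4R-/- replicates 5 and 6 were at 19.2 and 18.2, far below WT replicate 2.

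The larger cell populations differed little between libraries. Fibroblast markers (6 of 7 with a row) summed to 5872 to 7196 in MC4R-/- libraries and 5314 to 6250 in WT libraries. Of the 6, 1 rose, where 0.287% of all tested genes did. It was Lum (lumican, a matrix proteoglycan), at 484 ± 38.3 in MC4R-/- libraries and 333 ± 67.4 in WT libraries (log2 fold change 0.56 ± 0.10, SE, limma adjusted p = 0.011). Without the trend and robust steps Lum was not called. Endothelial markers summed to 5209 to 6461 in MC4R-/- libraries and 5467 to 6115 in WT libraries, arterial markers to 814 to 1023 in MC4R-/- libraries and 875 to 972 in WT libraries, and venous and lymphatic markers to 2046 to 2337 in MC4R-/- libraries and 1881 to 2149 in WT libraries. Smooth muscle markers summed to 16355 to 18300.1 in MC4R-/- libraries and 17178 to 19022 in WT libraries. In these 4 vessel lists 0 genes passed, against 0.459% of all tested genes. The sums of these 4 lists in MC4R-/- replicates 5 and 6 were inside the range of the other libraries. Gja5 is also an arterial gene and Nr2f2 a venous one, but neither was in these lists. Nr2f2 itself was at 98.3 in MC4R-/- replicate 5, against 49.3 to 72.0 in the other libraries.

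**Figure D5:**
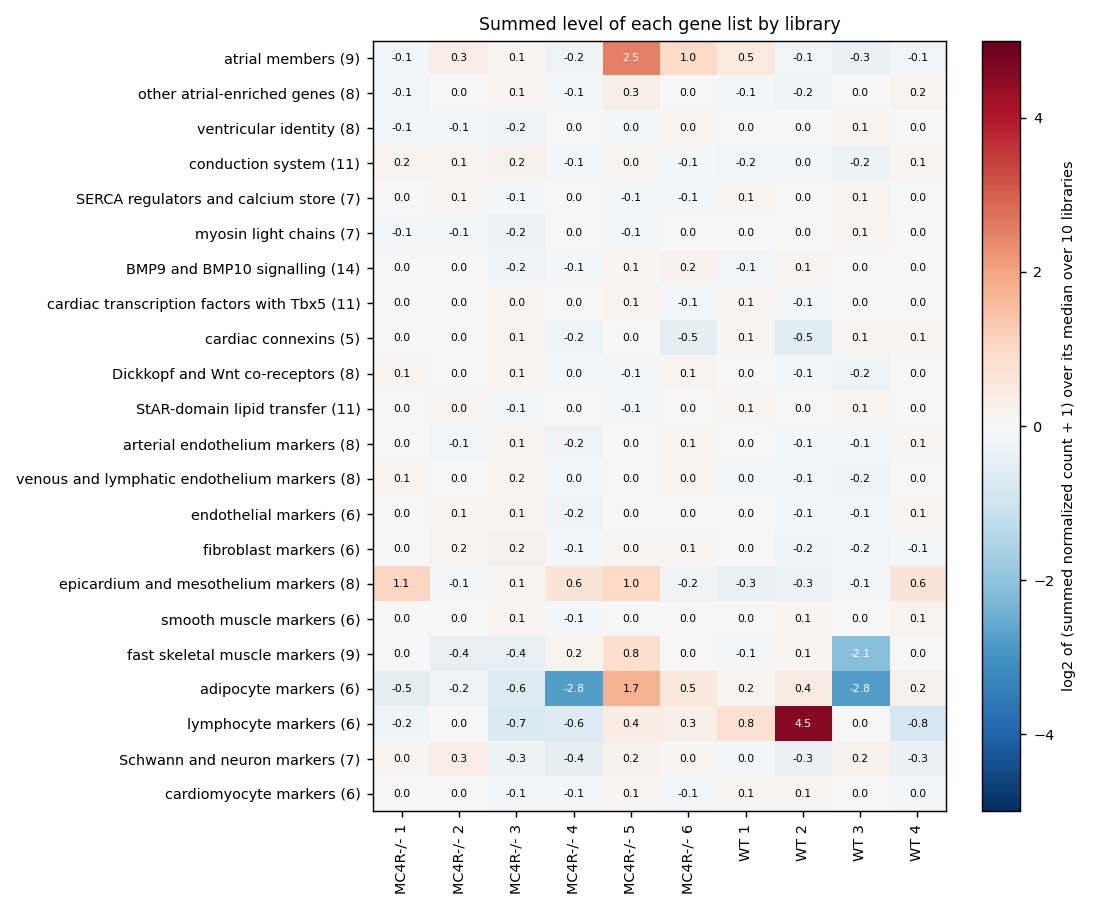
Log2 of the summed normalized count + 1 of each gene list over its median across libraries, with lists in rows (number of genes with a row in brackets) and libraries in columns, the 6 MC4R-/- libraries left of the 4 WT libraries. The atrial members stand at 2.5 in MC4R-/- replicate 5 and 1.0 in replicate 6, lymphocyte markers at 4.5 in WT replicate 2, and ventricular and cardiac muscle lists vary by at most 0.2.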

How the data were processed

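The 6 MC4R-/- and 4 WT libraries of left ventricular poly(A) RNA were each prepared from 200 ng of RNA (integrity number above 7) with a stranded kit, per the labels' protocols. The submitters' processing notes name, without their roles, mm10, TopHat2 2.1.0, Bowtie2, Cuffnorm 2.2.1.1, Cuffdiff 2.2.1.3 and Cufflinks 2.2.1. The strand setting and annotation are not given in any source used here. The authors deposited signal values that behave as gene counts scaled by a size factor: 99.99 to 100% of values were whole multiples (within 0.1) of 1 read, which gave back the reads.

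Genotypes were compared with limma 3.58.1 in R 4.3.3 (trend, robust, two-sided) on log2(normalized count + 1) for 14611 genes with a mean of at least 1, adjusted by Benjamini-Hochberg at 0.05. Fold changes on this scale understate low genes. The test was planned for normalized values and kept. edgeR 4.0.16 and DESeq2 1.42.0 on recovered reads were alternatives. The procedure was tested on simulated data. Correlations used 100000 permutations, or exact ones with 8 or fewer libraries. Gene symbols, positions and promoters are RefSeq's and GENCODE's for GRCm38.

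The members and lists were chosen with earlier results of these data known, and count models without MC4R-/- replicates 5 and 6 were added after seeing the data. Named are the members, listed genes past the threshold or lowest in p, and for each member the 5 genes with the highest r. A few single values (Mybphl, Chad, Cntn2, Hcn4, Nppa) are given in full because their libraries bear on the members, chosen after their values were seen. Some list genes had no row of their own, and a few named by these rules are left out here.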

Additional observations from a re-analysis of the deposited data

Results flagged for a closer look

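Single libraries lay far from the rest of their genotype in 10 of 16 groups of members' normalized counts, by Dixon's test on the gap to the nearest library. Its rate of about 1 in 20 by chance assumes normally distributed values and separate genes. These counts hold a few very high values, and the members covary and were chosen with earlier results known. The 10 flags therefore cannot be set against that rate. MC4R-/- replicate 5 stood apart in Sln (170), Myl7 (720), Myl4 (905), Dkk3 (262) and Nr2f2 (98.3). WT replicate 1 stood apart from the other WT libraries in Sln (3.85), Myl7 (48.1) and Myl4 (106). For Sln that value is 4 reads, and the 0 reads of WT replicate 3 allow a normalized count of up to 4.15. WT replicate 3 stood apart in Gja5 (26.3) and Nr2f2 (72.0). On the log2 scale 4 of these groups still held such a library, namely WT replicate 1 for Sln, WT replicate 3 for Gja5 and Nr2f2, and MC4R-/- replicate 5 for Nr2f2. Dixon's test looks for a single distant value, so MC4R-/- replicate 6 was not marked in any gene although it was second highest in Sln, Myl7, Myl4 and Stard10.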

How the results depend on the processing

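Over the 25 alternative settings of each of the 8 tested members, 0 reached the threshold, with a smallest adjusted p of 0.374 (DESeq2, Sln). The genes called over the whole table, 67 in the limma fit, numbered 0 without the trend and robust steps, 118 with library weights, 118 with DESeq2, 26 (without WT replicate 4) to 117 (without WT replicate 2) when any 1 library was left out, and 149 without MC4R-/- replicates 5 and 6 and WT replicate 2. Pairs of members that covaried, 7 over 10 libraries, numbered 3 without the 2 farthest libraries and 3 without MC4R-/- replicates 5 and 6. Of 200 log2 fold changes of members, 17 changed sign, 16 of them of Gja5, Nr2f2 and Tbx5. Not all of the 200 could change. Other filters, limma without the trend and robust steps and the exact permutation test keep the fold change of the limma fit. The replicate block gives the same fold changes as the fit without MC4R-/- replicates 5 and 6. Gja5, at 0.01 with all libraries, was -0.10 with library weights, -0.052 with edgeR and -0.054 with DESeq2, and lay between -0.21 (without WT replicate 3) and 0.087 when any 1 library was left out. Nr2f2, at 0.13, was -0.019 without MC4R-/- replicates 5 and 6 and -0.053 without those and WT replicate 2, and between -0.0087 and 0.25 with 1 library left out. Tbx5, at 0.08, was -0.022 and -0.018 in those 2 fits and between -0.011 and 0.17 with 1 left out. Myl4, at 2.002 with all libraries, was at -0.0062 without MC4R-/- replicates 5 and 6 and WT replicate 2 and at most 3.02 with 1 library left out (without WT replicate 1). The cause was not tested. Depth limits Sln and Bmp10 most, with 10 and 2 reads in all outside MC4R-/- replicates 5 and 6.

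Samples with the same replicate number did not deviate together (correlations of -0.06, -0.03, -0.06 and -0.0035 for numbers 1 to 4), so the numbers were not read as pairs. With the number as a replicate block, 52 genes were called, 0 of them members, and Nr2f2 and Tbx5 were at -0.019 and -0.022. MC4R-/- replicates 5 and 6 have no WT partner, so they add nothing to that fit.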

Other observations

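Myl7 levels were spread over several steps. The order of the 5 highest libraries was MC4R-/- replicate 5 (720), MC4R-/- replicate 6 (134), MC4R-/- replicate 2 (63.0), WT replicate 1 (48.1) and MC4R-/- replicate 3 (8.71), and the other 5 libraries had 1.38 or less. WT replicate 1 stands in that order between MC4R-/- libraries, and it was also the second highest library in Dkk3 (96.2) and Chad (26.9).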
